A study of Arabidopsis thaliana with 20 samples.

Results

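The genes described are those of the plastid and mitochondrial genomes of Arabidopsis thaliana, as read in RNA from whole roots of grafted plants. A row of the deposited count table was a member if its gene code began with ATCG (plastid genome) or ATMG (mitochondrial genome) and its counts over the 20 libraries summed to at least 100. This gave 62 of the 133 plastid rows and 28 of the 152 mitochondrial rows, 90 members among 32833 gene codes. The members were thus chosen by their summed counts, which are given as a description only. They ran from 102 to 71565 in the plastid members and from 116 to 549773 in the mitochondrial members. Just inside the limit lay ATCG01070 with 102 counts, ATCG00640 with 104, ATMG00110 with 116 and ATMG00040 with 118. Just outside it lay ATCG00030 with 98 counts, ATCG00710 with 94, ATMG01350 with 80 and ATMG01220 with 78.

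The plants joined shoots and roots of Col-0 wild type (WT) and of cpd, a mutant in CPD, which encodes a cytochrome P450 of brassinosteroid synthesis. Groups are named shoot first: cpd/cpd, cpd/WT, WT/cpd and WT/WT, with 5 replicates each. A replicate pooled 3 roots, so no single plant was measured, and the mutant part of a graft carries the mutation in all its cells. No label states which cpd allele was used or how old the plants were. The titles of the cpd/cpd samples lack the word for grafting that the other titles carry, so in comparisons with cpd/cpd a difference in grafting and a difference in genotype cannot be told apart. Whether replicates came from separate plates or days is not stated, so the p-values speak only to variation among these root pools, which may be technical.

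Plastids and mitochondria descend from bacteria and keep small genomes of their own. The plastid genome encodes parts of the photosynthetic machinery, of the plastid ribosome and of a bacterial type RNA polymerase, whose promoter choice depends on sigma factors encoded in the nucleus. Nuclear genes also encode the phage-type polymerases that transcribe mitochondrial and some plastid genes. The mitochondrial genome encodes a few subunits of the respiratory chain and of the ATP synthase, with ribosomal parts and cytochrome c assembly factors. Root cells hold colourless plastids, which make starch, amino acids and fatty acids and carry the same genome as the chloroplast. Organelle transcripts are cut, spliced and edited after transcription, and most lack the stable poly(A) tail of nuclear messengers.

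Library totals ran from 13417029 to 32337043 counts. CPD (AT5G05690) had 2.3 to 4.47 CPM (counts scaled by the size of the library) in the 10 libraries of cpd roots, against 34.1 to 51.7 CPM in the 10 libraries of WT roots, in every library as labelled. All 8 root markers tested had counts in all 20 libraries, among them the endodermal gene CASP1 and the root patterning genes SHR and SCR. The 10 nuclear genes listed as shoot tissue markers, all genes of photosynthesis such as RBCS1A, LHCB2.1 and RCA, were at 0 in no library. Whether their counts came from shoot tissue or from root cells was not tested. Their summed level ran from 1030 to 2240 CPM in cpd/cpd, 1220 to 2000 in cpd/WT, 845 to 1770 in WT/cpd and 548 to 1120 in WT/WT. In each group 1 library correlated least with the rest of its group: cpd/cpd replicate 4, cpd/WT replicate 2, WT/cpd replicate 2 and WT/WT replicate 4. In bulk RNA, fewer cells of a type, fewer organelles per cell and less RNA per organelle cannot be told apart.

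Both genomes took a small share of the counts. The plastid members held 0.0725 ± 0.013% of counts in cpd/cpd, 0.0623 ± 0.0081% in cpd/WT, 0.0654 ± 0.00472% in WT/cpd and 0.0751 ± 0.009% in WT/WT (SD, n = 5 each). Single libraries ran from 0.048% in cpd/WT replicate 3 to 0.0881% in cpd/cpd replicate 4, and the ranges of every pair of groups overlapped. The mitochondrial members held 0.123 ± 0.0279% in cpd/cpd, 0.147 ± 0.0165% in cpd/WT, 0.161 ± 0.042% in WT/cpd and 0.182 ± 0.0417% in WT/WT. The lowest library was cpd/cpd replicate 4 with 0.0897%, and the highest were WT/cpd replicate 4 and WT/WT replicate 5, both with 0.229%. No test was made of these sums, because the members were chosen with earlier results known. The shares of the whole cpd grafts and of the whole WT grafts overlapped in both genomes.

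**Figure D1:**
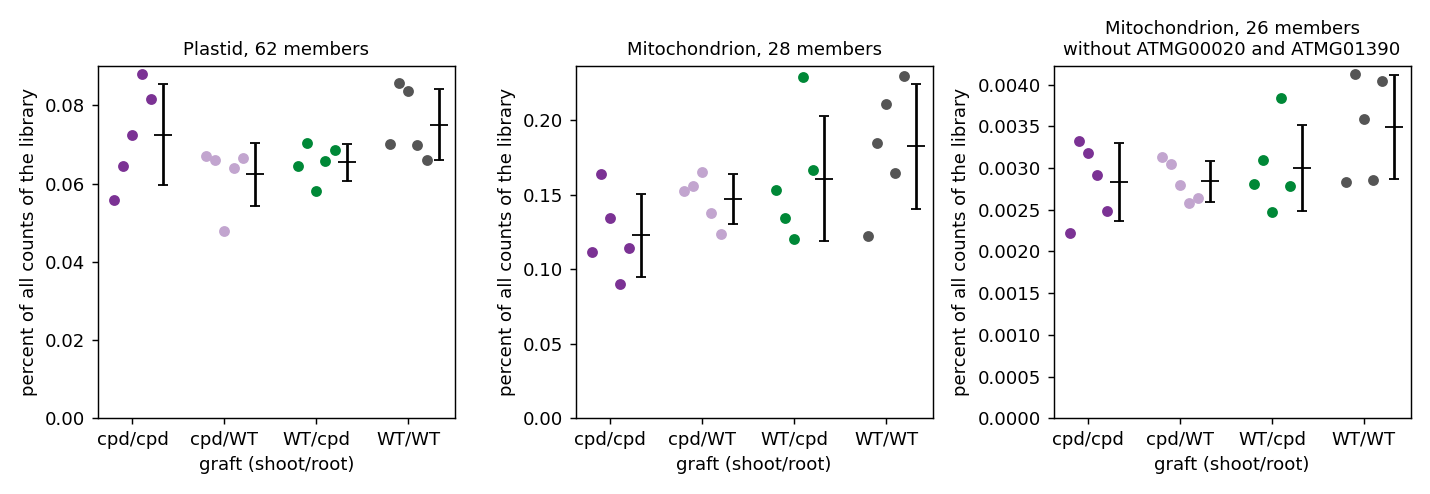
Share of all counts of a library, in percent, held by the 62 plastid members (left), the 28 mitochondrial members (middle) and the 26 mitochondrial members other than ATMG00020 and ATMG01390 (right), by graft group named shoot/root. Each point is a library and the bar gives the mean ± SD of 5 libraries. The groups overlap in all 3 panels, and the mean mitochondrial share runs from 0.123% in cpd/cpd to 0.182% in WT/WT.

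The counts lay on a few rows. In the mitochondrial genome ATMG00020 held 549773 of the 727034 member counts and ATMG01390 held 162780. These rows took 96.7% to 98.3% of the mitochondrial member counts of a library, and without them the mitochondrial share fell to 0.00283% in cpd/cpd, 0.00284% in cpd/WT, 0.003% in WT/cpd and 0.00349% in WT/WT. Only 5 mitochondrial members had 1000 counts or more over all libraries, the others being ATMG00090, ATMG01360 and ATMG00660. In the plastid genome 25 members reached 1000 counts, and the median member had 468.5. Neighbouring codes, which are numbered along the genome, stood high together: the 9 codes from ATCG00740 to ATCG00820 were all members, each with 6495 counts or more, and held 52.9% to 63.4% of the plastid member counts of a library. ATCG01130 alone held 13.5% to 25.9%, and the adjacent pair ATCG00470 and ATCG00480 2.4% to 11.5%. These are shares of counts, not levels per length, because the codes could not be tied to gene lengths here.

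**Figure D2:**
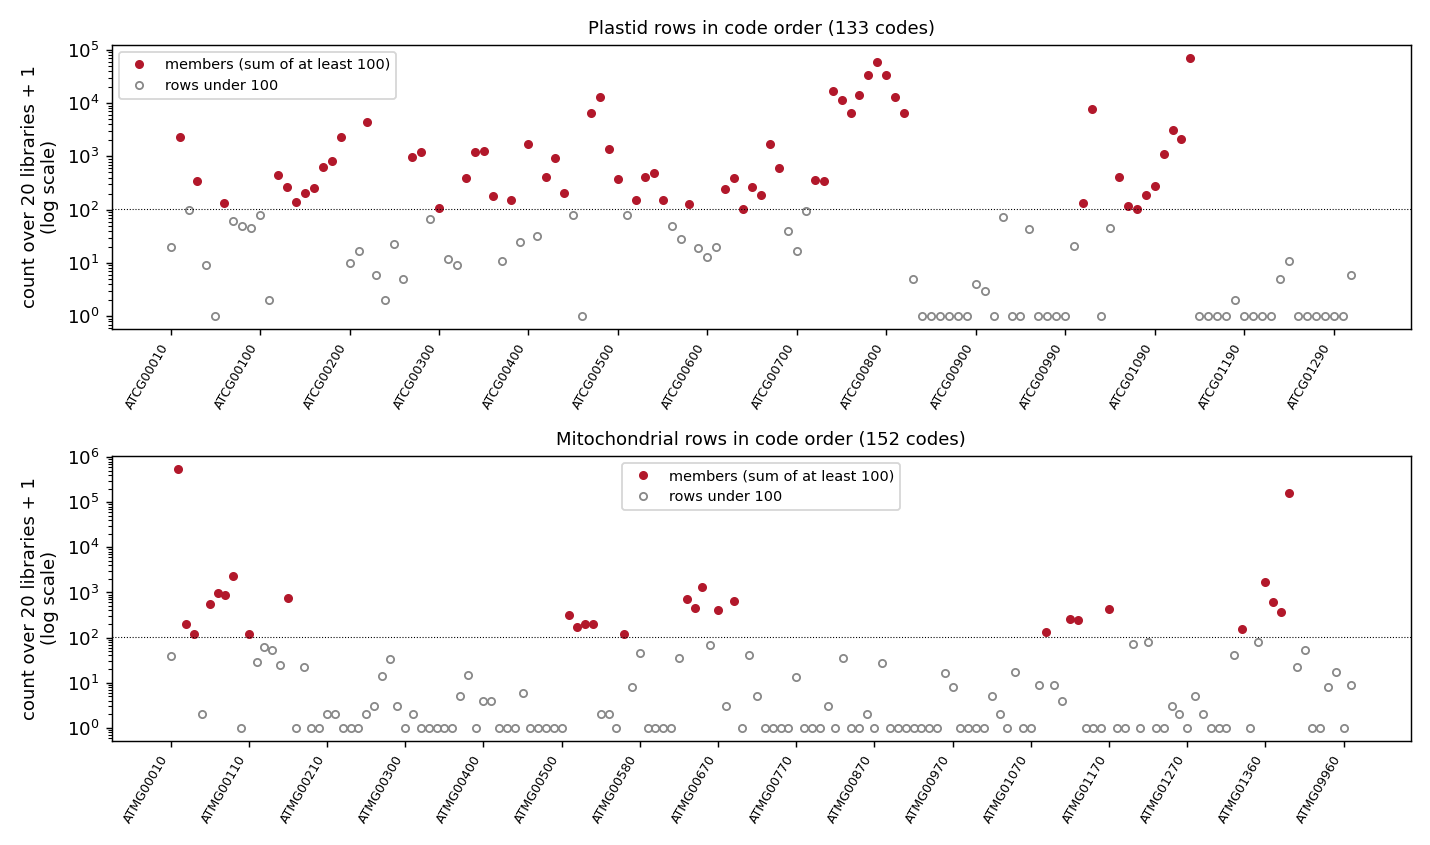
Counts summed over the 20 libraries plus 1, on a log axis, for the 133 plastid rows (top) and the 152 mitochondrial rows (bottom) in the order of their codes. Filled points are members and open points are rows under the limit of 100, marked by the dotted line. The 9 neighbouring plastid codes from ATCG00740 to ATCG00820 stand together, and ATMG00020 and ATMG01390 stand above all other mitochondrial rows.

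Many rows held nothing. Of the plastid rows 30 were at 0 in all libraries, and of the mitochondrial rows 69. The plastid codes ATCG00830 to ATCG00990 held 13 rows at 0 and no member among 18, and ATCG01140 to ATCG01310 held 14 rows at 0 and no member among 18, against 62 members among the other 97 plastid codes. These ranges were chosen after the counts were seen. In the reference genome the plastid chromosome of 154478 bases carries an inverted repeat of 26264 bases with 100% identity, and 72.2% of the mitochondrial genome of 367808 bases is matched at 99% identity or more by chromosome 2. Of the 53 mitochondrial codes that a chromosome 2 gene note names, 49.1% were at 0, against 43.4% of the other 99. Members were 5.7% of the first and 25.3% of the second. How the authors counted reads that match more than 1 place is not given in the sources used here, and its part in the rows at 0 was not tested. A row at 0 says only that no read was counted there.

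Few of these codes carry a description in the reference annotation used here, where nuclear genes are annotated by their best match to an organelle protein. Among members, ATCG00670 is described as the plastid-encoded CLP P, the proteolytic subunit of the plastid Clp protease, with 1710 counts. ATCG00750 is described as ribosomal protein S11 (11647 counts), ATCG00660 as ribosomal protein L20 (186), ATCG00530 as a CemA-like proton extrusion protein (403) and ATCG00430 as photosystem II reaction center protein G (915). These descriptions come only from notes on nuclear genes. Whether ATCG00430 encodes a part of photosystem II was not checked. ATMG01090 is described as a mitochondrial ATP synthase 9, the membrane ring subunit, with 134 counts. Codes described as cytochrome c oxidase subunit 3 (ATMG00730), ATP synthase subunit 1 (ATMG01190) and NADH dehydrogenase 3 (ATMG00990) had 0 counts in all libraries, and apocytochrome b (ATMG00220) had 1. The chromosome 2 genes annotated with these codes as best match held 48 counts (AT2G07687, for ATMG00730), 553 (AT2G07698, for ATMG01190), 0 (AT2G07751, for ATMG00990) and 68 (AT2G07727, for ATMG00220). Low counts of these codes thus do not show that the transcripts were absent. The other members are given by code alone.

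A filter on low counts, edgeR's default, kept 51 plastid and 24 mitochondrial members. The 11 plastid members that failed it averaged 0.158 to 0.422 CPM per group and the 4 mitochondrial ones 0.153 to 0.348 CPM, too few counts for a test. Those left out were ATCG00065, ATCG00140, ATCG00300, ATCG00380, ATCG00520, ATCG00550, ATCG00580, ATCG00640, ATCG01010, ATCG01060 and ATCG01070, with ATMG00040, ATMG00110, ATMG00560 and ATMG01090. The remaining 75 were tested with edgeR's quasi-likelihood F test over all 20862 genes that passed. A gene was called at a Benjamini-Hochberg adjusted p under 0.05 over all of them. Counts of members at an unadjusted p under 0.05 are descriptions only. The share of all genes at that unadjusted p was not computed, so they cannot be read as many or few. Each adjusted p below comes from that F test, unless another fit is named, and ± after a log2 fold change is its standard error. That error was derived from the test, as the absolute log2 value divided by the square root of F.

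The whole cpd graft was first set against the whole WT graft. In cpd/cpd roots the adjacent plastid codes ATCG00480 and ATCG00470 were higher, and no other member of either genome was called. That is 2 of 51 plastid and 0 of 24 mitochondrial members, where 6.36% of all genes were called, 3.72% as higher and 2.63% as lower. ATCG00480 had 15.9, 33.5, 56.9, 59.9 and 53.4 CPM in cpd/cpd, against 10.9, 16.6, 21.7, 16.5 and 18.8 CPM in WT/WT. In 4 of 5 cpd/cpd libraries it stood above every WT/WT library, and cpd/cpd replicate 1 lay within their range. The difference was 2.6-fold (log2 1.38 ± 0.29, adjusted p = 0.0093). ATCG00470 had 7.03, 18.3, 28.3, 31.3 and 23.8 CPM in cpd/cpd, against 5.45, 8.66, 8.44, 7.8 and 7.76 CPM in WT/WT, again with replicate 1 of cpd/cpd inside the WT/WT range. It differed 2.85-fold (log2 1.51 ± 0.32, adjusted p = 0.0095). Both calls held in all 20 alternatives, with adjusted p from 0.00013 to 0.032 for ATCG00470 and from 0.00014 to 0.034 for ATCG00480.

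Neither code had a call for the root genotype. ATCG00470 and ATCG00480 had means of 21.7 and 43.9 CPM in cpd/cpd and of 14.4 and 28.5 CPM in cpd/WT. Under WT shoots the means were 9.61 and 19.9 CPM in WT/cpd, with 7.62 and 16.9 CPM in WT/WT. On a cpd root they were called higher under a cpd shoot, ATCG00480 2.2-fold (log2 1.13 ± 0.29, adjusted p = 0.03) and ATCG00470 2.25-fold (log2 1.17 ± 0.32, adjusted p = 0.041). On a WT root the same exchange of the shoot gave log2 values of 0.76 ± 0.29 (adjusted p = 0.11) and 0.92 ± 0.32 (adjusted p = 0.078), which were not called. There ATCG00480 had 32.3, 24.7, 30, 25.3 and 30.2 CPM in cpd/WT, all above its highest WT/WT library, and ATCG00470 had 15, 20.3, 12.3, 9.69 and 14.9 CPM, also all above. Fitted on these groups alone, both were called on a WT root, with adjusted p of 0.014 for ATCG00480 and 0.013 for ATCG00470. Of 20 alternatives, however, only 1 called ATCG00480 and 2 called ATCG00470 on a WT root, with adjusted p up to 0.23 and 0.19. Exchanging the root gave log2 values of 0.62 ± 0.28 and 0.59 ± 0.31 under a cpd shoot and of 0.24 ± 0.29 and 0.34 ± 0.32 under a WT shoot, with adjusted p from 0.23 to 0.67. The interaction of shoot and root was 0.38 ± 0.41 for ATCG00480 and 0.25 ± 0.45 for ATCG00470 (adjusted p = 0.6 and 0.78), so the shoot's effect was not shown to differ between the roots.

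Set against each other, ATCG00470 had 0.485 ± 0.0915 counts for each count of ATCG00480 over all libraries (SD, n = 20). The group means of this ratio were 0.491 in cpd/cpd, 0.515 in cpd/WT, 0.477 in WT/cpd and 0.459 in WT/WT. The highest ratio, 0.822, was that of cpd/WT replicate 2. Together the pair made up 8.67 ± 2.89% of plastid member counts in cpd/cpd and 6.86 ± 1.13% in cpd/WT. Their share was 4.54 ± 1.58% in WT/cpd, with 3.31 ± 0.645% in WT/WT. Every cpd/WT library lay above every WT/WT library in this share, by 5.43% against at most 4.05%, while cpd/cpd replicate 1 had 4.05%. Of the 10 shoot tissue markers 4 were also called higher in cpd/cpd than in WT/WT, where 3.72% of all genes were. All 10 markers had positive values, with a median log2 change of 0.76, and their part in the values of the pair was not tested. In WT/cpd, replicate 5 stood apart for both codes, with 16.8 CPM of ATCG00470 against at most 9.06 in the rest of that group and 32.3 CPM of ATCG00480 against at most 19.1.

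**Figure D3:**
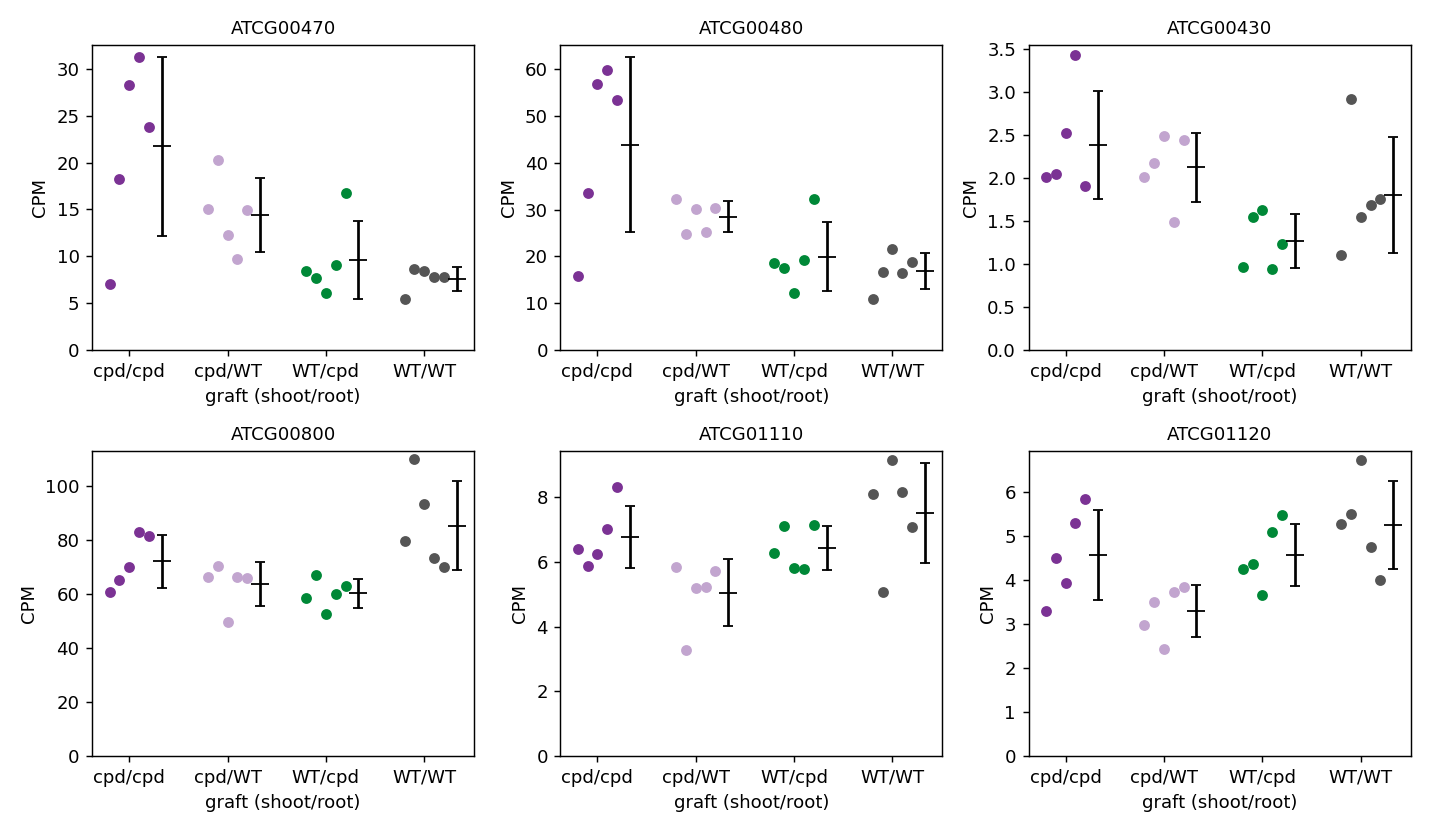
CPM per library of the 6 plastid members called in at least 1 comparison, by graft group named shoot/root, with mean ± SD of 5 libraries. ATCG00470 and ATCG00480 have means of 21.7 and 43.9 CPM in cpd/cpd, against 7.62 and 16.9 CPM in WT/WT, and ATCG00800 is highest in WT/WT with a mean of 85.3 CPM.

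The shoot genotype on a cpd root gave 1 more called member, so that 3 of 51 plastid members were called, all higher in cpd/cpd, against 4.66% of all genes (1.42% higher, 3.25% lower). It was ATCG00430, described as photosystem II reaction center protein G. That description comes only from the note on a nuclear gene, AT5G11770. Whether the code encodes a part of photosystem II was not checked. ATCG00430 had 2.01, 2.04, 2.53, 3.42 and 1.9 CPM in cpd/cpd, against 0.969, 1.54, 1.62, 0.945 and 1.23 CPM in WT/cpd, with no overlap between the groups. The difference was 1.86-fold (log2 0.9 ± 0.25, adjusted p = 0.043). The neighbouring ATCG00440, named after its values were seen, had a log2 value of 1.01 ± 0.48 on far fewer counts (203 in all) and was not called. None of the 24 mitochondrial members was called in this comparison (1 at an unadjusted p under 0.05).

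These 3 calls depended on single libraries. ATCG00480 lost its call without replicates 3, 4 or 5 of cpd/cpd or replicates 1, 3 or 4 of WT/cpd (adjusted p = 0.051 to 0.085, log2 0.99 to 1.11). ATCG00470 lost it without the same libraries or WT/cpd replicate 2 (adjusted p = 0.063 to 0.11, log2 1 to 1.14). ATCG00430 lost it without any library of these groups other than WT/cpd replicate 2 (adjusted p = 0.051 to 0.11, log2 0.73 to 1). The count of called members was 0 when only these groups were fitted, 0 with no filter on low counts and 0 without the 4 least typical libraries. The direction held in all of these.

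Fewer plastid counts under a cpd shoot on a WT root were seen in 3 other members. In cpd/WT roots ATCG01120, ATCG01110 and ATCG00800 were lower than in WT/WT roots, 3 of 51 plastid members, all lower, against 9.11% of all genes (6.21% higher, 2.9% lower). No mitochondrial member was called (2 of 24 at an unadjusted p under 0.05). ATCG01120 had 2.98, 3.5, 2.44, 3.73 and 3.85 CPM in cpd/WT, against 5.28, 5.49, 6.71, 4.74 and 4 CPM in WT/WT, without overlap. Its log2 value was -0.67 ± 0.18 (adjusted p = 0.024). Its neighbour ATCG01110 had 5.83, 3.26, 5.2, 5.22 and 5.71 CPM in cpd/WT, against 8.09, 5.08, 9.12, 8.16 and 7.07 CPM in WT/WT, where replicate 2 of WT/WT lay within the cpd/WT range. Its log2 value was -0.57 ± 0.16 (adjusted p = 0.032). ATCG01130, the next code and the plastid member with most counts, averaged 128 ± 39.8 CPM in cpd/WT while WT/WT had 176 ± 24.4 CPM (log2 -0.46 ± 0.17, adjusted p = 0.098). It was called without cpd/WT replicate 2 (log2 -0.61, adjusted p = 0.033) and without the 4 least typical libraries (log2 -0.61, adjusted p = 0.045), and in no other alternative. On a cpd root the same exchange gave log2 values of 0 ± 0.17 for ATCG01120, 0.08 ± 0.16 for ATCG01110 and 0.05 ± 0.17 for ATCG01130, with adjusted p from 0.82 to 0.99.

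Single libraries also decided these calls. ATCG01120 was not called without replicates 1 or 3 of cpd/WT or of WT/WT (adjusted p = 0.053 to 0.069, log2 -0.66 to -0.56). ATCG01110 was not called without replicates 2, 3 or 4 of cpd/WT or 1, 3 or 4 of WT/WT (adjusted p = 0.054 to 0.091, log2 -0.58 to -0.45). Without cpd/WT replicate 3, WT/WT replicate 1 or WT/WT replicate 3 no member was called. Shoot tissue markers moved the other way. All 10 were positive and 7 were called higher in cpd/WT, where 6.21% of all genes were. The markers had a median log2 change of 1.02, against -0.07 over the 51 plastid members and -0.01 over all genes. Their part in the plastid values was not tested.

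ATCG00800 was lower in both mixed grafts than in WT/WT. It had 58.7, 67, 52.7, 60.1 and 63 CPM in WT/cpd, against 79.7, 110.1, 93.4, 73.3 and 70 CPM in WT/WT, and the groups did not overlap. WT/cpd thus had 0.706-fold the WT/WT level (log2 -0.5 ± 0.12, adjusted p = 0.014). It was the only plastid member called for the root's genotype beneath a WT shoot, 1 of 51, where 9.45% of all genes were called (6.19% higher, 3.26% lower) and 0 of 24 mitochondrial members were (1 at an unadjusted p under 0.05). The call held in all 20 alternatives (adjusted p = 0.0024 to 0.043). In cpd/WT it had 66.3, 70.6, 49.8, 66.5 and 66 CPM, and only replicate 2 reached above the lowest WT/WT library. The log2 value was -0.42 ± 0.12 there (adjusted p = 0.037). That call was lost without replicates 1, 3, 4 or 5 of cpd/WT or 1, 2 or 3 of WT/WT (adjusted p = 0.055 to 0.1, log2 -0.44 to -0.3).

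In cpd/cpd the level of ATCG00800 was 72.2 ± 9.83 CPM, between those of the mixed grafts and of WT/WT. The exchange of the root under a cpd shoot gave a log2 value of 0.18 ± 0.12 (adjusted p = 0.44). The interaction, the root's effect under a cpd shoot minus that under a WT shoot, was 0.68 ± 0.17 (adjusted p = 0.021). ATCG00800 was the only member called for the interaction, 1 of 51 plastid and 0 of 24 mitochondrial members, against 7.73% of all genes (2.3% higher, 5.43% lower). No mitochondrial member had an unadjusted p under 0.05 for it. Shoot tissue markers moved with these ATCG00800 values in the other direction. For the interaction all 10 were negative, with a median of -0.77 and 3 called, where 5.43% of all genes were called lower. In WT/cpd against WT/WT all 10 were positive, with a median of 0.62 and 3 called, where 6.19% of all genes were called higher. Their part in the ATCG00800 values was not tested. Without cpd/cpd replicate 5 the ATCG00800 interaction was 0.61 with an adjusted p of 0.05 and was not called.

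The neighbours of ATCG00800, described after their values were seen, had values of the same sign. All 9 codes from ATCG00740 to ATCG00820 had a positive interaction, from 0.2 to 0.68 with a median of 0.38, and 6 had an unadjusted p under 0.05. The sign was not particular to them. Of all 51 tested plastid members, these 9 included, 36 were positive (70.6%, against 53.8% of all genes), with a median of 0.31. An unadjusted p under 0.05 was held by 9 of the 51. ATCG00810 had 0.46 ± 0.17 (adjusted p = 0.099), ATCG00820 0.55 ± 0.19 (adjusted p = 0.087) and ATCG00780 0.37 ± 0.13 (adjusted p = 0.075). ATCG00750, described as ribosomal protein S11, had 0.2 ± 0.18 (adjusted p = 0.52). All 9 had negative values for WT/cpd against WT/WT (median -0.16) and for cpd/WT against WT/WT (median -0.24), comparisons that share the WT/WT libraries. Of all 51 plastid members 39 and 30 were negative in these comparisons, where 47.7% and 47.3% of all genes were positive. The highest group mean was that of WT/WT in 8 of the 9 and the lowest that of cpd/WT in 6. Of these codes only ATCG00800 was called, and codes next to each other may share transcripts, so they are not independent of each other.

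The root genotype under a cpd shoot gave no called member of either genome, where 1.86% of all genes were called (0.82% higher, 1.04% lower). At an unadjusted p under 0.05 there were 5 of 51 plastid and 1 of 24 mitochondrial members, and DESeq2 also called 0. The smallest adjusted p was 0.15 for the plastid and 0.23 for the mitochondrial members. Log2 values ran from -0.83 to 0.62 in the plastid members, with standard errors from 0.09 to 0.5. The members with most counts were measured best: ATCG00790, with 124 ± 14.3 CPM in cpd/cpd and 117 ± 11.5 in cpd/WT, had 0.09 ± 0.1, and ATCG00780 had 0.22 ± 0.09 (adjusted p = 0.18).

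Over all 51 tested plastid members the median log2 value was -0.21 for the root's genotype beneath a WT shoot, 0.09 beneath a cpd shoot, -0.07 for the shoot genotype on a WT root, 0.09 for it on a cpd root and -0.13 for the whole grafts. The medians of all genes lay between -0.01 and 0.02. The interaction had a median of 0.31 in the plastid members, beside 0.03 over all genes. WT/WT had the highest group mean in 24 of 51 plastid members, cpd/cpd in 14, cpd/WT in 10 and WT/cpd in 3. The ratio of the highest to the lowest group mean ran from 1.06 to 2.85, with ATCG00470 at the top and a median of 1.4. That ratio was 1.55 for ATCG00660, 1.36 for ATCG00530, 1.16 for ATCG00750 and 1.12 for ATCG00670 among the members that the reference describes. ATCG00670, the Clp protease subunit, had 3.72 CPM in cpd/cpd, 3.54 in cpd/WT, 3.33 in WT/cpd and 3.5 in WT/WT. Its log2 values ran from -0.06 to 0.14 over the 6 comparisons, each with a standard error of 0.23 to 0.32.

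**Figure D4:**
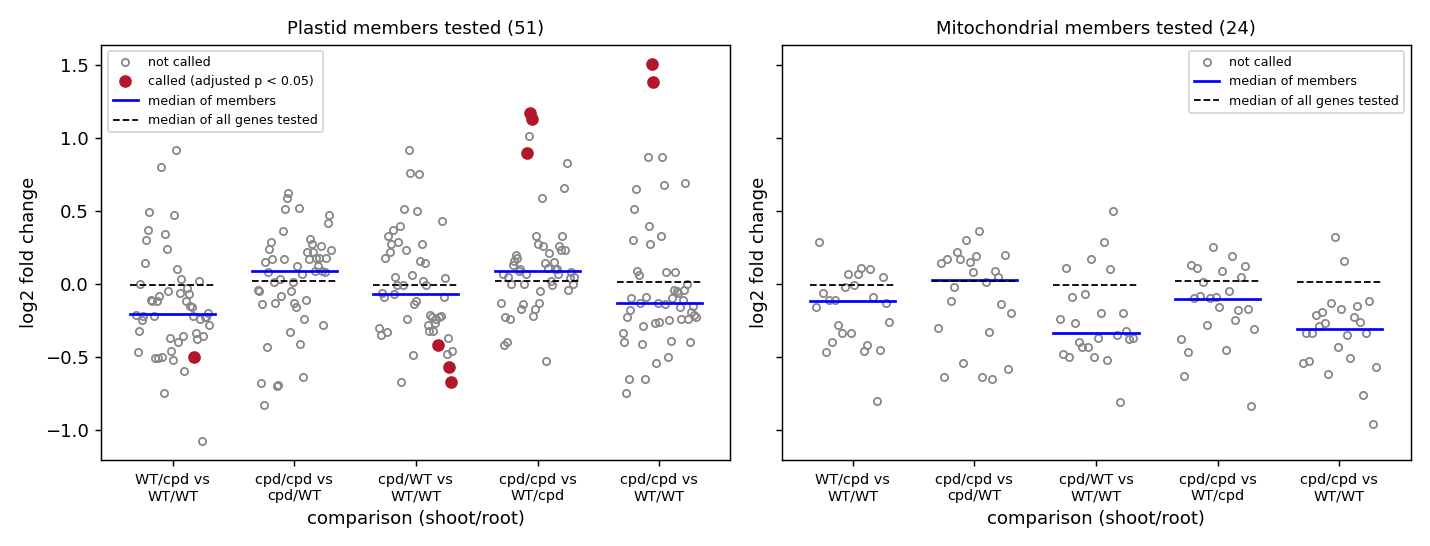
Log2 fold change of each tested plastid member (left, 51) and mitochondrial member (right, 24) in the 5 comparisons of 2 groups, the first named group over the second. Filled points are called members, the solid line is the median of the members and the dashed line that of all genes tested. Called plastid members lie above 0 where cpd/cpd is set against WT/cpd or WT/WT and below 0 for cpd/WT or WT/cpd against WT/WT, and no mitochondrial member is called.

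ATMG00020 and ATMG01390, the mitochondrial rows with most counts, had their lowest mean in cpd/cpd and their highest in WT/WT, and no mitochondrial member was called. Whether these rows hold ribosomal RNA could not be told by code here, so they are not read as levels of messengers. ATMG00020 had 842, 1198, 985, 682 and 931 CPM in cpd/cpd, against 931, 1362, 1555, 1266 and 1631 CPM in WT/WT. In WT/WT 4 of 5 libraries stood above every cpd/cpd library, and replicate 1 lay within their range. The log2 value was -0.54 ± 0.16 with an adjusted p of 0.051. It had 1140 ± 118 CPM in cpd/WT and 1200 ± 248 CPM in WT/cpd, and no other comparison of it had an adjusted p under 0.19. ATMG00020 was called lower in 7 of 20 alternatives for the whole grafts, with DESeq2 among them (adjusted p = 0.013), and the adjusted p ran from 0.013 to 0.13. Without cpd/cpd replicate 2, WT/WT replicate 1 or WT/WT replicate 4 it was 0.029, 0.025 and 0.044. The summed level of the 8 root markers was 290 to 368 CPM in cpd/cpd and 417 to 472 CPM in WT/WT, without overlap. Of the 8, 2 were called lower in cpd/cpd, where 2.63% of all genes were. Their log2 values were negative in 5 and positive in 3. TIP2-3 averaged 60 CPM in cpd/cpd against 131 in WT/WT, and CASP1 62.6 against 102. SCR had 34.7 against 34.2 CPM, PHT1-1 111 against 108 and COBL9 22.5 against 17.1. The part of the root markers in the mitochondrial values was not tested.

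ATMG01390 varied more. It had 269, 426, 359, 185 and 181 CPM in cpd/cpd, against 231, 436, 462, 368 and 610 CPM in WT/WT, and WT/cpd replicate 4 held 629 CPM, the highest of all. The whole graft difference was -0.57 ± 0.3 (adjusted p = 0.28), with wide overlap. Its counts were 0.293 ± 0.0562 of those of ATMG00020 over all libraries (SD, n = 20), and from 0.281 in WT/cpd to 0.306 in WT/WT by group mean. Among smaller rows, ATMG00090 had 4.74 ± 0.918 CPM in cpd/cpd, 4.81 ± 0.76 in cpd/WT, 4.4 ± 0.798 in WT/cpd and 5.79 ± 0.653 in WT/WT, and its log2 value for the whole grafts was -0.29 ± 0.15 (adjusted p = 0.29). ATMG01360 had -0.34 ± 0.22 (adjusted p = 0.39) and ATMG00660 0.16 ± 0.22 (adjusted p = 0.71).

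**Figure D5:**
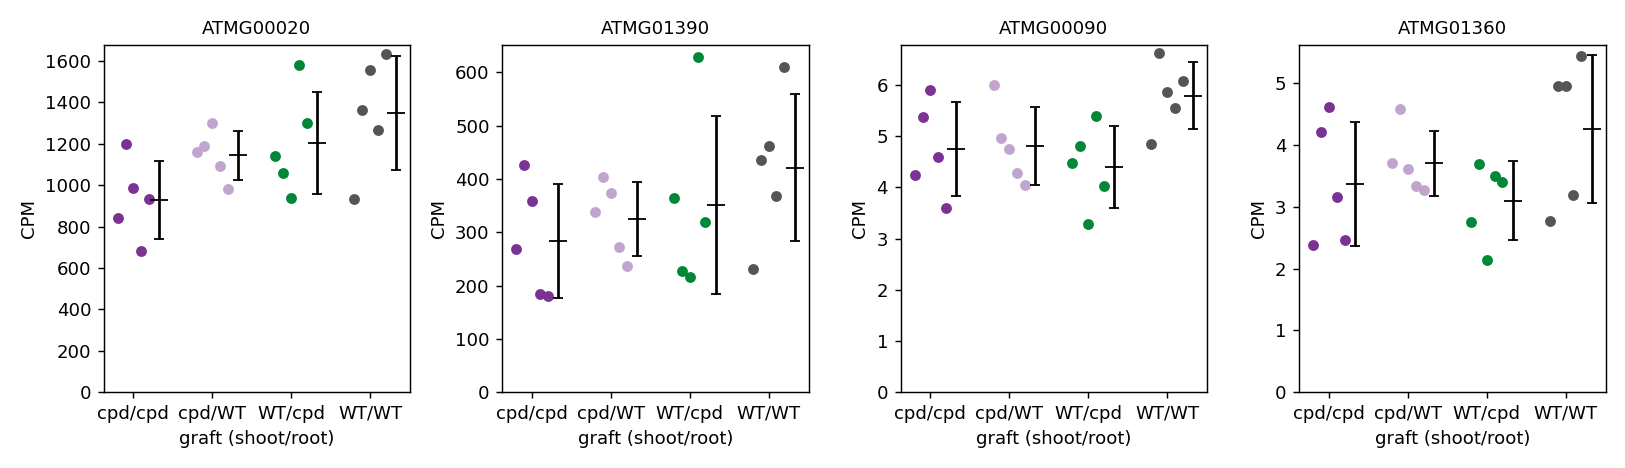
CPM per library of the mitochondrial members ATMG00020, ATMG01390, ATMG00090 and ATMG01360, by graft group named shoot/root, with mean ± SD of 5 libraries. The mean of ATMG00020 is lowest in cpd/cpd and highest in WT/WT, and the groups overlap in all 4 members.

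Of the 24 tested mitochondrial members, 22 had a negative value for the whole grafts, 91.7% where 47% of all genes did, with a median of -0.31. The members belong to 1 genome and were read in the same libraries, so they are not independent of each other. WT/WT had the highest group mean in 16, cpd/WT in 4, and cpd/cpd and WT/cpd in 2 each. The lowest was cpd/WT in 11 members, cpd/cpd in 8, WT/cpd in 4 and WT/WT in 1. The medians were -0.12 for the root's genotype beneath a WT shoot, 0.03 beneath a cpd shoot, -0.34 for the shoot genotype on a WT root, -0.1 on a cpd root and 0.16 for the interaction. At an unadjusted p under 0.05 there were 2 of 24 members for the whole grafts. The median standard error of these 24 log2 values was 0.3.

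Nuclear genes for the transcription of the organelle genomes were also measured. Of 9 tested sigma factor and phage-type polymerase genes, 3 rose and 1 fell in cpd/WT against WT/WT, 3 rose in cpd/cpd against WT/WT, and 1 rose and 2 fell in WT/cpd against WT/WT. The interaction was called in 3 of the 9, 1 positive and 2 negative. Of all genes 9.11%, 6.36%, 9.45% and 7.73% were called in these comparisons, in this order. SIG1 (AT1G64860), a sigma factor of the plastid polymerase, averaged 29.7 ± 2.87 CPM in cpd/WT while WT/WT had 22 ± 0.975 CPM, with no overlap (log2 0.43 ± 0.08, adjusted p = 0.005), a call kept in all 20 alternatives. SIG4 (AT5G13730), another of them, averaged 2.52 ± 0.832 CPM in cpd/WT while WT/WT had 0.758 ± 0.432 CPM (3.29-fold, adjusted p = 0.012), also kept in all 20, and 2.12 ± 0.941 in cpd/cpd (2.75-fold, adjusted p = 0.028). That second call was lost without cpd/cpd replicate 4, where SIG4 was highest, and without replicates 1 or 5 of WT/WT (adjusted p = 0.061 to 0.074). The other calls for the whole grafts, SIG1 (adjusted p = 0.036) and SIG2 (AT1G08540, adjusted p = 0.045, named after its values were seen), were lost without 8 and 9 of the 10 libraries, taken 1 at a time. SIG5 (AT5G24120), a sigma factor known for its response to light and stress, had 32.1 ± 11.4 CPM in cpd/cpd, 54 ± 13.7 in cpd/WT, 48.3 ± 18.8 in WT/cpd and 26.2 ± 6.44 in WT/WT, and was called higher in cpd/WT against WT/WT (adjusted p = 0.027). That call was lost without cpd/WT replicate 1 or replicates 1, 3 or 4 of WT/WT (adjusted p = 0.054 to 0.064). The SIG5 interaction was -1.63 ± 0.39 (adjusted p = 0.016, and 0.051 without the 4 least typical libraries), and SIG1 had -0.45 ± 0.11 (adjusted p = 0.018). AT5G15700, a phage-type polymerase gene, had a log2 value of -0.3 ± 0.08 in WT/cpd against WT/WT (adjusted p = 0.032), a call lost without replicates 1, 3, 4 or 5 of WT/cpd or 1, 2, 3 or 5 of WT/WT (adjusted p = 0.055 to 0.1). The other gene that fell, in both mixed grafts, was MGP3 (AT1G68990, log2 -0.22 in each, adjusted p = 0.041 in cpd/WT and 0.044 in WT/cpd), named after its values were seen. Its calls were lost without 9 libraries in cpd/WT and 7 in WT/cpd, taken 1 at a time (adjusted p up to 0.14).

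Of 12 tested genes for proteins attached to the plastid polymerase, 2 rose in cpd/cpd against WT/cpd, 1 rose in cpd/WT and 1 in cpd/cpd against WT/WT, and none fell in any comparison. These are 16.7%, 8.33% and 8.33% of the list, where 4.66%, 9.11% and 6.36% of all genes were called. FSD2 (AT5G51100), an iron superoxide dismutase of plastids, had 10.1 ± 0.58 CPM in cpd/cpd against 7.18 ± 1.07 in WT/cpd, without overlap (log2 0.49 ± 0.11, adjusted p = 0.016). PTAC12 (AT2G34640), a component of plastid transcription complexes, had 22.5 ± 2.56 against 17.6 ± 0.869 CPM in the same groups (log2 0.35 ± 0.09, adjusted p = 0.026). PTAC7 (AT5G24314) had 10.8 ± 1.11 CPM in cpd/cpd against 7.47 ± 1.11 in WT/WT (log2 0.54 ± 0.13, adjusted p = 0.017). FSD2 was not called without WT/cpd replicate 1 (adjusted p = 0.051), PTAC7 in cpd/cpd without WT/WT replicate 5 (adjusted p = 0.051) and PTAC12 without replicates 1, 4 or 5 of cpd/cpd or 1, 3 or 5 of WT/cpd (adjusted p = 0.052 to 0.078). The gene that rose in cpd/WT was also PTAC7 (log2 0.42 ± 0.13, adjusted p = 0.043), a call lost without replicates 2 or 5 of cpd/WT or 1, 2 or 5 of WT/WT (adjusted p = 0.059 to 0.1). Without cpd/WT replicate 2 its log2 value was 0.27. Among 3 genes of organelle RNA turnover, AT5G14580, a polyribonucleotide nucleotidyltransferase, had an interaction of 0.73 ± 0.19 (adjusted p = 0.024, and 0.05 without WT/cpd replicate 3). It had 23.3 ± 4.24 CPM in cpd/cpd, 19.2 ± 2.13 in cpd/WT, 18.1 ± 2.28 in WT/cpd and 24.7 ± 4.5 in WT/WT. AT5G14580 was also called lower in WT/cpd than in WT/WT (log2 -0.45 ± 0.13, adjusted p = 0.039), where 9.45% of all genes were called. That call was lost without replicates 1, 2, 3 or 5 of WT/cpd or 1, 3 or 4 of WT/WT (adjusted p = 0.062 to 0.1).

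Of 17 tested nuclear genes of respiratory chain subunits, 1 rose for the whole grafts, 1 rose in cpd/cpd against WT/cpd and 1 fell in WT/cpd against WT/WT. Each is 5.88% of the list, where 6.36%, 4.66% and 9.45% of all genes were called. CI51 (AT5G08530), the 51 kDa subunit of complex I, had 369 ± 10.5 CPM in cpd/cpd against 321 ± 22.2 in WT/WT (log2 0.2 ± 0.06, adjusted p = 0.049). The median of the list was 0.2 there, against -0.31 in the tested mitochondrial members and 0.01 over all genes. The CI51 call was lost in 12 of 20 alternatives, among them without replicates 1, 2, 3 or 5 of either group (adjusted p = 0.073 to 0.12). AT3G15640, of the rubredoxin-like superfamily, had 76.2 ± 5.61 CPM in WT/cpd against 102 ± 6.67 in WT/WT, without overlap (log2 -0.41 ± 0.09, adjusted p = 0.0079), a call kept in all 20 alternatives. It rose in cpd/cpd against WT/cpd (97.1 ± 10.9 CPM in cpd/cpd, log2 0.35 ± 0.09, adjusted p = 0.031), a call lost without replicates 1, 2 or 3 of cpd/cpd or 1, 3 or 4 of WT/cpd (adjusted p = 0.054 to 0.09).

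Of 5 genes of the mitochondrial stress response, BCS1 (AT3G50930), an ATPase of the mitochondrial outer membrane also listed as OM66, had 32 ± 15.4 CPM in cpd/cpd, 87.7 ± 55.5 in cpd/WT, 103 ± 71.2 in WT/cpd and 17.2 ± 4.53 in WT/WT. It rose 5.11-fold in cpd/WT (adjusted p = 0.014) and 5.99-fold in WT/cpd (adjusted p = 0.0069) against WT/WT, and its interaction was -4.04 ± 0.74 (adjusted p = 0.0054), with all 3 calls kept in every alternative run. BCS1 ran from 15.3 to 209 CPM in WT/cpd, which overlapped the 13.3 to 24.6 CPM of WT/WT. AOX1D (AT1G32350), an alternative oxidase, had 0.342 ± 0.154 CPM in cpd/cpd against 1.66 ± 1.27 in WT/cpd (log2 -2.19 ± 0.61, adjusted p = 0.045). AT2G21640, a marker of the oxidative stress response, had 2.45 ± 1.15 CPM in WT/cpd and 3.36 ± 0.717 in cpd/cpd, against 6.75 ± 2.73 in WT/WT (adjusted p = 0.0052 and 0.039). The AOX1D call was lost without any cpd/cpd library or without replicates 1, 2 or 5 of WT/cpd (adjusted p = 0.054 to 0.14). That of AT2G21640 in cpd/cpd was lost without replicates 1, 2, 3 or 5 of cpd/cpd or 1, 2 or 5 of WT/WT (adjusted p = 0.067 to 0.12). AOX1A and NDB2, the rest of the list, were called in no comparison. AOX1A averaged 64 CPM in cpd/cpd, 83 in cpd/WT, 77.8 in WT/cpd and 88.7 in WT/WT. NDB2 averaged 88.7, 91.1, 96 and 94.4 CPM in the same order. In WT/cpd against WT/WT 40% of the list was called, where 9.45% of all genes were.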

How the data were processed

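RNA was read from whole roots of grafted Arabidopsis, 4 graft groups of 5 replicates, each a pool of 3 roots. The authors deposited raw counts per gene code, as whole numbers. Per the submitters' processing notes STAR and TAIR10 were used, without stated versions. Libraries were made with a directional kit, per the labels' protocols. Whether poly(A) RNA was selected, how reads were assigned to genes, the strand setting and the treatment of multiply matching reads are matters not given in the sources used here. How much of an organelle's RNA was captured is therefore unknown, and the counts compare libraries made alike.

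From the deposited counts, genes passing edgeR's filterByExpr by group (20862) were scaled by TMM and tested with edgeR 4.0.16 (R 4.3.3, limma 3.58.1) by the quasi-likelihood F test, with robust dispersion estimates and 1 coefficient for each of the 4 groups (16 residual degrees of freedom). The 6 comparisons were the root genotype under each shoot, the shoot genotype on each root, the whole grafts and the interaction. P-values were adjusted by Benjamini-Hochberg over all tested genes, with a threshold of 0.05. CPM use TMM-scaled libraries, and the code that fits the model was tested on simulated data. Library totals of 13417029 to 32337043 counts set the precision, which is low for members near 100 counts. Alternatives were other size factors, filters and fits, DESeq2 1.42.0, a replicate block, and leaving out each library. Repeats in the reference genome were found with blastn 2.17.0.

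Members and gene lists were chosen with earlier results of these data known. Named were, per genome, the 5 members of highest mean CPM, up to 5 called members per comparison, rows beside the limit of 100, members that the reference describes, and up to 2 called genes per nuclear list and comparison. A part of that rule that lists organelle genes by symbol could be applied only where the reference ties a code to a description. Organelle sequences and gene lengths were not used here.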

Additional observations from a re-analysis of the deposited data

Results flagged for a closer look

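In 136 groups of 5 libraries examined, 10 held a library whose gap to the nearest of the others exceeded Dixon's 95% critical value of 0.71 times the group's range. Chance flags about 1 in 20 groups. ATCG00470 stood high in WT/cpd replicate 5 with 16.8 CPM, where the others had 6.08 to 9.06, and low in WT/WT replicate 1 with 5.45 CPM, where the others had 7.76 to 8.66. Low values were also those of ATCG00800 in cpd/WT replicate 3 (49.8 CPM, others 66 to 70.6), ATCG01110 in cpd/WT replicate 2 (3.26 CPM, others 5.2 to 5.83) and ATCG01130 in WT/cpd replicate 3 (124 CPM, others 148 to 154). The plastid share of counts was low in cpd/WT replicate 3, at 0.048% where the others had 0.0639% to 0.0672%. Among nuclear genes, high values were those of CI51 (AT5G08530) in WT/WT replicate 4 (359 CPM, others 305 to 320) and SIG4 (AT5G13730) in cpd/cpd replicate 4 (3.77 CPM, others 1.51 to 1.95). AT5G14580 in WT/WT replicate 4 (32.5 CPM, others 21.5 to 23.8) and PTAC7 (AT5G24314) in cpd/WT replicate 2 (14 CPM, others 8.76 to 9.52) were high too. The libraries WT/WT replicate 4, cpd/cpd replicate 4 and cpd/WT replicate 2 were also the least typical of their groups.

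The effect of the root genotype differed between the shoots, by edgeR's test of the interaction, in 1 member and 6 nuclear genes for organelle functions. Of all genes 7.73% were called for it, and 51 plastid and 24 mitochondrial members were tested. Of the nuclear lists, 3 of 9 sigma factor and polymerase genes and 0 of 12 genes for proteins attached to the plastid polymerase were called. In RNA turnover it was 1 of 3, in respiratory subunits 1 of 17 and in the stress response 1 of 5. The log2 values were 0.68 for ATCG00800, -0.45 for SIG1 (AT1G64860), -1.63 for SIG5 (AT5G24120), 0.73 for AT5G14580, 0.44 for AT3G15640, -4.04 for BCS1 (AT3G50930) and 0.36 for MGP3 (AT1G68990, adjusted p = 0.027). Leaving out 1 library at a time, the AT3G15640 call was lost in 12 of 20 fits (adjusted p = 0.054 to 0.08): replicates 1, 2 and 3 of cpd/cpd, 1, 4 and 5 of cpd/WT, 1, 3 and 4 of WT/cpd, and 1, 2 and 4 of WT/WT. That of MGP3 was lost without replicate 1 of cpd/cpd, replicates 1, 3 or 5 of WT/cpd, or replicates 1 or 5 of WT/WT (adjusted p = 0.051 to 0.064).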

How the results depend on the processing

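None of the called log2 values followed through the alternatives changed direction. The same held for ATMG00020 in the whole grafts and for ATCG00470 and ATCG00480 in cpd/WT against WT/WT. Values of other members were not followed. The mitochondrial count for the whole grafts was 1 in place of 0 with DESeq2 size factors, with no filter on low counts, with a stricter filter (1 CPM in 5 libraries) and with DESeq2's Wald test, each time ATMG00020. The plastid count for the shoot genotype on a cpd root was 0 with no filter, 0 with only the compared groups fitted and 0 without the 4 least typical libraries. It was 1 with the replicate number as a block, against 3 without it. The shoot genotype on a WT root gave 5 plastid calls with DESeq2, and the root genotype beneath a WT shoot gave 3 without the 4 least typical libraries, an alternative added after the data were seen. With 1 library left out, plastid counts ran from 1 to 2 for the root genotype beneath a WT shoot, 0 to 4 for the shoot genotype on a WT root, 0 to 2 on a cpd root and 0 to 2 for the interaction, and mitochondrial counts from 0 to 1 for the whole grafts. Leaving out ATMG00020 and ATMG01390 brought the mitochondrial share to 0.00283% in cpd/cpd, 0.00284% in cpd/WT, 0.003% in WT/cpd and 0.00349% in WT/WT. Replicate numbers were not shown to pair the libraries: the correlation of same-numbered deviations exceeded 0.1 in at most 3 of 5 pairs and ran from -0.51 to 0.43. The cause of these shifts was not tested. Leaving ribosomal RNA rows of the organelles out was not run, because those rows could not be told by code.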
